A study of Homo sapiens with 12 samples.

Results

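The 8 genes described here are nuclear regulators of mitochondrial biogenesis, the growth and renewal of the mitochondrial compartment: NRF1, GABPA, PPARGC1A, ESRRA, TFAM, TFB2M, POLRMT and POLG. They were chosen by name, and a probe was taken as theirs where the platform annotation listed that symbol or an older alias, which gave 10 probes for 8 of the 14473 gene symbols named on the array. NRF1 and GABPA each had 2 probes and the other 6 genes had 1. TFAM is listed on the platform under its older alias TCF6L1.

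The study treated LNCaP cells, a line derived from a lymph node metastasis of human prostate cancer, and measured their RNA on 12 two-colour arrays. The treatments were 5 mM metformin, a biguanide that lowers mitochondrial complex I activity, 5 mM AICAR, a nucleoside whose phosphorylated form activates the energy sensor AMPK, and no drug (control), each for 24 h per the labels. Each of 2 independent cultures gave 1 RNA extract per treatment, and the 3 extracts of a culture were hybridized against each other in pairs, each pair on 2 arrays with the dyes exchanged (a dye swap). No allele or transgene was involved, and all extracts came from the same cell line. The extracts of a culture differed in treatment, and the arrays of the comparisons also differed in slide numbers, as given below.

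Mitochondrial DNA codes for only a small part of the organelle's proteins, and the rest are made from nuclear genes. GABPA is the DNA-binding subunit of the GA-binding protein, also called NRF2. PGC-1α, the product of PPARGC1A, is a coactivator that acts with the transcription factors NRF1, GABPA and ERRα (the product of ESRRA). These factors drive nuclear genes of the respiratory chain and of the machinery that copies and reads mitochondrial DNA. In that machinery TFAM packages mitochondrial DNA and opens its promoters, TFB2M melts the promoter for the RNA polymerase POLRMT, and POLG is the catalytic subunit of the DNA polymerase. NRF1 here is nuclear respiratory factor 1, and the study followed NRF1 and TFAM as proteins in its account of mitochondrial biogenesis under metformin.

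The deposited values are ratios of the 2 extracts on an array, so the level of 1 gene cannot be set against that of another, and the cell line could not be checked by marker levels. Here each was taken as a log2 ratio with Cy5 on top and Cy3 below, and turned by the dyes in the labels, so that a positive value means more RNA in the first-named treatment. The base and direction of the ratio are not stated in the sources used here, and this direction is therefore only likely. Read this way, ATF4, DNAJB9, XBP1 and ATF6 had log2 ratios of metformin to control of 1.13, 1.70, 1.065 and 0.42. The study describes the expression of all of these genes as raised by metformin. ATF6 was under the study's ratio cutoff of 0.7 here. Array medians lay between -0.04 and 0.05, and the unturned ratios of the 2 arrays of a dye swap correlated at r between -0.72 and -0.42 over all transcripts, where opposite dyes give a negative r. 3 arrays carry slide numbers apart from the rest, namely both metformin against control arrays of culture 1 and 1 AICAR against control array of culture 1. Values without these 3 arrays are given where they changed a result. Leaving them out keeps 1 dye orientation for AICAR against control in culture 1, so a dye offset no longer cancels there. Metformin against control in culture 1 then comes only through AICAR.

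The promoters of the 3 genes that make up the mitochondrial transcription machinery are shown because TFAM is the regulator that passed the test below and TFB2M the one with the most negative ratios to control, with POLRMT as their partner. Each run gives 250 bases before the annotated gene start and 50 bases from it on, from RefSeq on GRCh38.p14. TFAM lies at chr10:58385410-58399220 on the plus strand, with its promoter at chr10:58385160-58385459. TFB2M lies at chr1:246540561-246566261 on the minus strand, with its promoter at chr1:246566212-246566511. POLRMT lies at chr19:617221-633537 on the minus strand, with its promoter at chr19:633488-633787. Capitals mark matches on either strand to the NRF1 palindrome, to CCGGAAG, an ETS site of the kind GABPA binds, and to the shorter cores GCATGCGC and CGGAAG. The shorter cores were added after the promoters had been seen, and CGGAAG is contained in CCGGAAG.
TFAM: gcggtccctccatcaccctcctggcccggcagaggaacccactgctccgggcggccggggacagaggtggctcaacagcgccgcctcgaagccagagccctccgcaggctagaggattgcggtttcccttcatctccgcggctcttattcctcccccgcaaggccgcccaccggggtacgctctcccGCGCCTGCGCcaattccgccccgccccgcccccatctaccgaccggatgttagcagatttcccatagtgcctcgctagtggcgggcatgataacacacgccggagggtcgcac
TFB2M: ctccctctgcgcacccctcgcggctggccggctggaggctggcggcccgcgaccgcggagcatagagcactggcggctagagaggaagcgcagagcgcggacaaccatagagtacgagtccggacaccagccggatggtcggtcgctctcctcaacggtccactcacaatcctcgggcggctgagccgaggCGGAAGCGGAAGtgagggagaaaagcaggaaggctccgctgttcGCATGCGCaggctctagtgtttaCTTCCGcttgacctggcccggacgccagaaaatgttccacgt
POLRMT: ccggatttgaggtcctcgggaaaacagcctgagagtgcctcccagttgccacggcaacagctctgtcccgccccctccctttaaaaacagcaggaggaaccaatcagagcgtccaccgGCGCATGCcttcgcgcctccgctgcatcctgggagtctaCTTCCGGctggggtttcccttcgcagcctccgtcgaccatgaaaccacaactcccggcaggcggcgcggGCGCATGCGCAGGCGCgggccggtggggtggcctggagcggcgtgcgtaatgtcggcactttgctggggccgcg

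The TFAM promoter held 1 match to the NRF1 palindrome, on the reverse strand from position -63 to -54, counted with the start base as 0. The POLRMT promoter held 2 overlapping matches to it, from -24 to -15 and from -18 to -9, with 1 CCGGAAG on the reverse strand from -93 to -87. It also held GCATGCGC on the reverse strand from -132 to -125, and within the palindrome match from -24 to -15. The TFB2M promoter held neither the palindrome nor CCGGAAG. It had GCATGCGC from -15 to -8 and CGGAAG from -59 to -54, from -53 to -48 and, on the reverse strand, from 8 to 13. Of 35116 promoters of the same length, the NRF1 palindrome was in 5.78%, CCGGAAG in 10.3%, GCATGCGC in 3.05% and CGGAAG in 19.5%. Of the other regulators, ESRRA had the NRF1 palindrome from -93 to -84 and GCATGCGC from -29 to -22. GABPA had CCGGAAG on the reverse strand from -66 to -60. The windows of POLG and PPARGC1A (2 starts) held none of these letters. The gene NRF1 had no promoter among those used here and was not searched. AAGGTCA, the binding element of ERRα, and TGACGTCA, the cyclic AMP response element, were searched as well, were in 3.92% and 1.85% of all promoters, and were in none of these windows. A match is a description of the letters and shows no binding.

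Each comparison was fitted with limma over the 6 extracts with treatment and culture as terms, and p-values were adjusted over all 24527 transcripts by the Benjamini-Hochberg method. A transcript passed the test at an adjusted p below 0.05 with a log2 ratio beyond 0.7 in either direction. With metformin against control, 0 of the 8 regulators passed, where 2.74% of all transcripts did. With AICAR against control, 0 of 8 passed, where 3.34% of all transcripts did. With metformin against AICAR, 1 of 8 passed, where 6.6% of all transcripts did, and that gene was TFAM, which was lower with metformin, as 2.01% of all transcripts were. At an unadjusted p below 0.05 in limma, 3, 2 and 2 of the 8 regulators were below it, against 17.5%, 20.9% and 26.4% of all transcripts. The median log2 ratio of the 8 was 0.03, -0.12 and 0.04 in these comparisons, beside 0.00, 0.04 and -0.03 over all transcripts. All transcripts include 10054 features without a name, and shares over named genes with a promoter sequence are given with the gene lists below. The 3 comparisons share their extracts, so a gene's 3 ratios are not independent of each other.

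**Figure D1:**
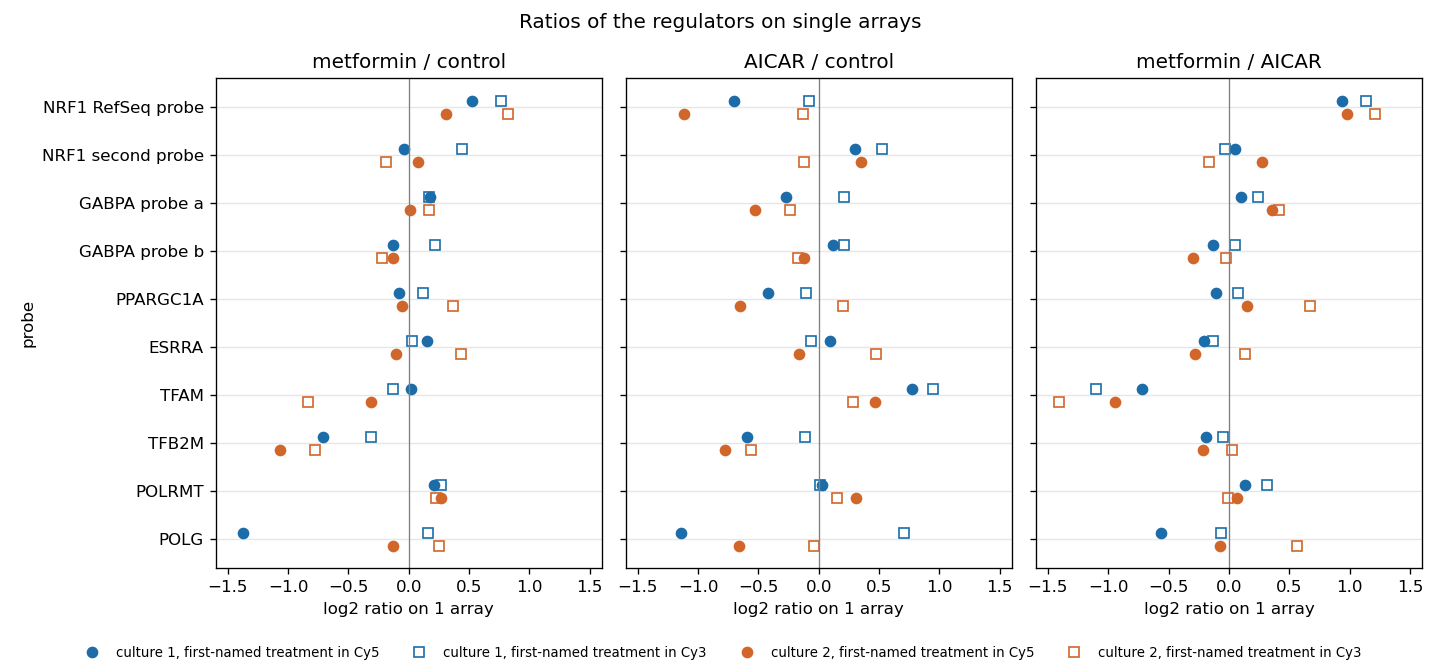
Log2 ratios (horizontal axis) of the 10 probes (rows) on the 12 arrays, with 1 panel per comparison, colour for the culture and filled or open symbols for the dye of the first-named treatment. All 4 metformin against AICAR arrays lie below -0.7 for TFAM and above 0.9 for the NRF1 RefSeq probe, and POLG values part by dye.

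In each of the cultures, TFAM mRNA was lower with metformin than it was with AICAR. On single arrays, the log2 ratios of metformin to AICAR were -1.10 and -0.72 in culture 1 and -1.41 and -0.94 in culture 2. All 4 arrays were negative. The fitted log2 ratio was -1.01 (95% interval -1.41 to -0.61, SE 0.15, n = 2 cultures; limma adjusted p = 0.024), a level 2.01-fold lower with metformin. Only 0.897% of all transcripts had a lower ratio in this comparison. Without the 3 arrays whose slide numbers are apart, the ratio was -1.01 with a limma adjusted p of 0.0467.

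Against the control extracts, TFAM passed the test with neither drug. AICAR to control ratios for TFAM were 0.95 and 0.77 in culture 1 and 0.29 and 0.47 in culture 2. All 4 were positive, and the cultures did not overlap. The fitted log2 ratio was 0.66 (95% interval 0.26 to 1.06; limma adjusted p = 0.0991). Metformin to control ratios were -0.13 and 0.02 in culture 1 and -0.83 and -0.31 in culture 2. Culture 1 was near 0 and culture 2 was negative on both arrays. The fitted ratio was -0.35 (95% interval -0.75 to 0.05; limma adjusted p = 0.346). In both cultures the order of TFAM levels was AICAR, then control, then metformin. The step from control to metformin was smaller than the spread between cultures.

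NRF1 lies at chr7:129611720-129757076 and was measured by 2 probes that gave different results. One probe is listed with a RefSeq transcript (the RefSeq probe), and the second is listed with another sequence record and was matched by its symbol only, a symbol that has also been used for NFE2L1. On the RefSeq probe, the log2 ratios of metformin to AICAR were 1.14 and 0.94 in culture 1 and 1.21 and 0.98 in culture 2. All 4 arrays were positive. In the fit of single probes, the ratio was 1.08 (95% interval 0.86 to 1.30, SE 0.08, n = 2 cultures; limma adjusted p = 0.0065), a 2.12-fold higher level with metformin, where 6.54% of all single probes passed. Against control, where no probe of the regulators passed, 2.52% of all single probes did with metformin and 3.26% with AICAR.

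Against control, the RefSeq probe of NRF1 lay on opposite sides with the 2 drugs, and neither ratio passed the test. With metformin, the log2 ratios were 0.77 and 0.52 in culture 1 and 0.82 and 0.31 in culture 2. All 4 were positive, and the fitted ratio of 0.59 (95% interval 0.37 to 0.81; limma adjusted p = 0.0414) was under the ratio threshold of 0.7. With AICAR, they were -0.08 and -0.71 in culture 1 and -0.13 and -1.11 in culture 2. All 4 were negative but they divided by dye, with a mean of -0.91 where AICAR was in Cy5 and -0.11 where it was in Cy3. The fitted ratio was -0.49 (95% interval -0.71 to -0.27; limma adjusted p = 0.0529). AICAR was in each dye once per culture, so an additive dye offset cancels in it.

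The second NRF1 probe gave a log2 ratio of metformin to AICAR of -0.04 (95% interval -0.31 to 0.23; limma adjusted p = 0.844). Its arrays in that comparison ran from -0.16 to 0.28, below every value of the RefSeq probe. Its ratios to control were 0.15 for metformin (limma adjusted p = 0.578) and 0.19 for AICAR (limma adjusted p = 0.378). The intervals of the 2 probes for metformin against AICAR did not overlap, and the second probe, with 2 arrays positive and 2 negative, had no direction of its own there. Averaged over both probes, NRF1 had a ratio of metformin to AICAR of 0.52 (95% interval 0.28 to 0.76; limma adjusted p = 0.0325), which was under the ratio threshold. Without the 3 arrays with slide numbers apart, that averaged ratio was 0.54 (limma adjusted p = 0.138). The averaged ratio of metformin to control was 0.37 (95% interval 0.13 to 0.61; limma adjusted p = 0.125), with 4 of 4 arrays positive.

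**Figure D2:**
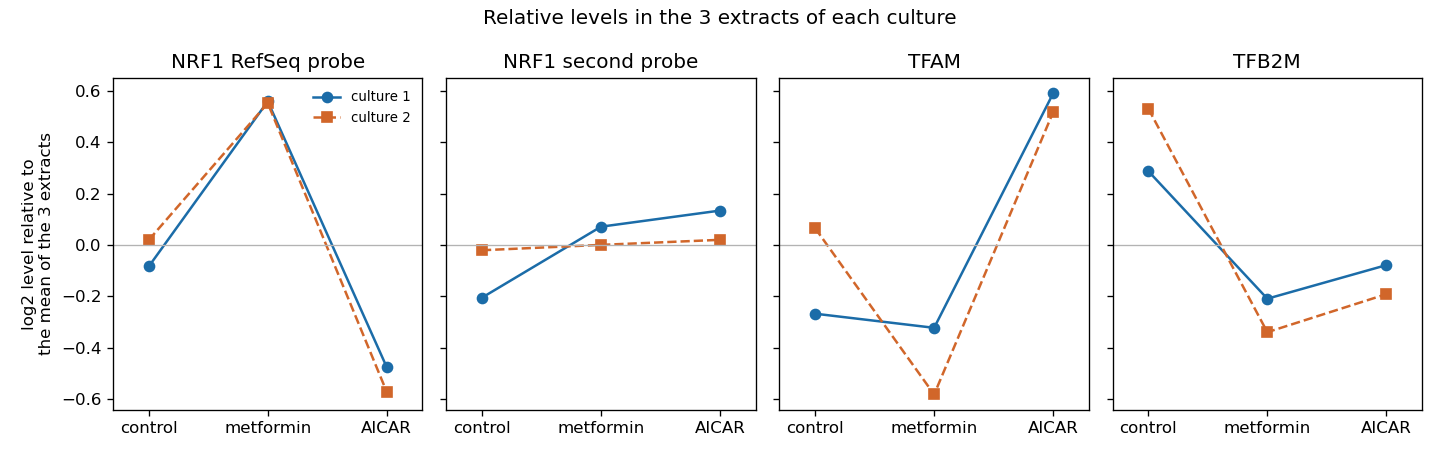
Log2 level of each treatment's extract relative to the mean of the 3 extracts of its culture (vertical axis), for both NRF1 probes, TFAM and TFB2M, with 1 line per culture. The RefSeq probe of NRF1 is highest with metformin and lowest with AICAR, TFAM is the reverse, and TFB2M is highest in control.

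TFB2M, the partner of POLRMT at mitochondrial promoters, had the most negative ratio to control of the 8 genes with either drug, and neither passed the test. Metformin to control log2 ratios were -0.31 and -0.71 in culture 1 and -0.78 and -1.07 in culture 2. All 4 arrays were negative. The fitted ratio was -0.68 (95% interval -0.99 to -0.38, SE 0.12, n = 2 cultures; limma adjusted p = 0.0581). For AICAR they were -0.11 and -0.59 in culture 1 and -0.56 and -0.78 in culture 2. All 4 were negative again, with a fitted ratio of -0.55 (95% interval -0.85 to -0.24; limma adjusted p = 0.0848). The drugs themselves differed by -0.14 (95% interval -0.45 to 0.17; limma adjusted p = 0.533). With arrays scaled to a common spread, the metformin ratio was -0.73 with a limma adjusted p of 0.0489, which passed.

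POLRMT, the mitochondrial RNA polymerase, was the most even of the 8 with metformin against control. Its arrays ran from 0.21 to 0.27, all positive. The fitted log2 ratio of 0.25 (95% interval 0.02 to 0.47; limma adjusted p = 0.254) did not pass. Its ratio of AICAR to control was 0.12 (95% interval -0.11 to 0.35; limma adjusted p = 0.505), and that of metformin to AICAR 0.13 (limma adjusted p = 0.448).

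POLG, which replicates mitochondrial DNA, lies at chr15:89316320-89334824 on the minus strand and was the least even. Its log2 ratios of metformin to control were 0.16 and -1.37 in culture 1 and 0.25 and -0.13 in culture 2. The 2 arrays with metformin in Cy5 were the negative ones. Those of AICAR to control were 0.70 and -1.14 in culture 1 and -0.04 and -0.66 in culture 2, with a mean of -0.90 where AICAR was in Cy5 and 0.33 where it was in Cy3. The fitted ratios were -0.29 (95% interval -0.74 to 0.17; limma adjusted p = 0.519) and -0.27 (95% interval -0.72 to 0.19; limma adjusted p = 0.453). Both took the other sign, at 0.20, without the 3 arrays with slide numbers apart. Without them, culture 1 kept only the AICAR to control array at 0.70, with AICAR in Cy3. A dye offset no longer cancels there, and metformin to control in culture 1 comes only through AICAR. These data give POLG no direction.

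**Figure D3:**
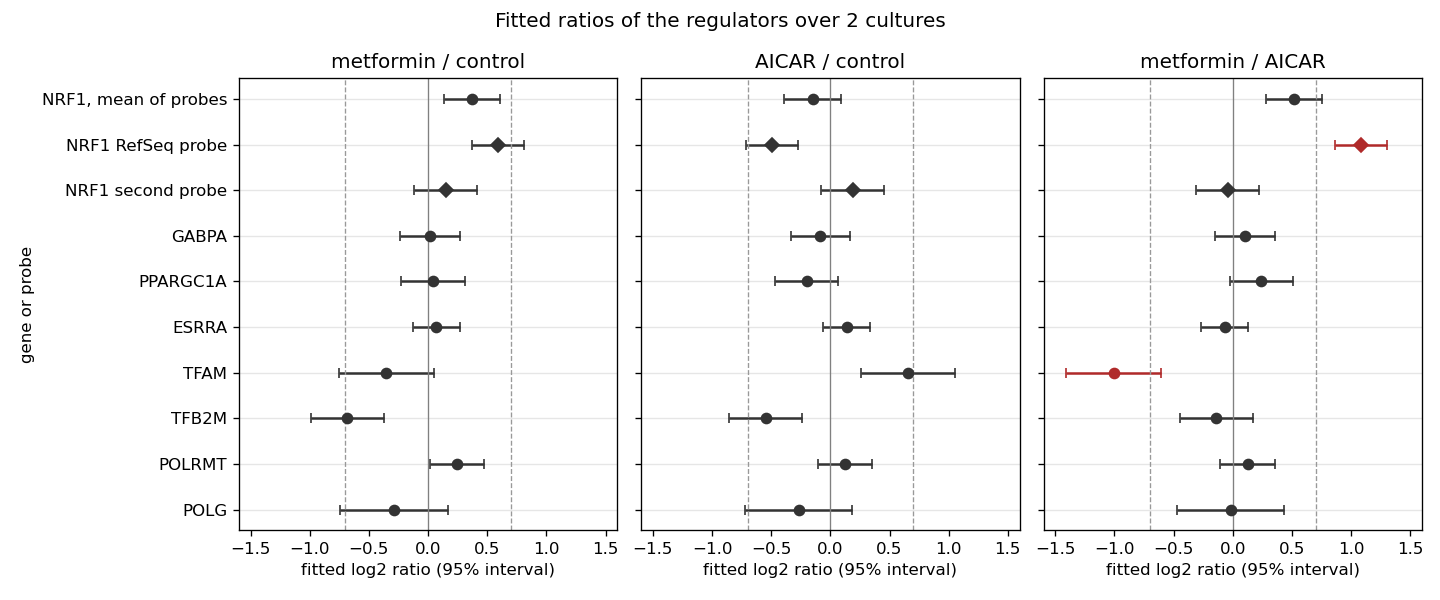
Fitted log2 ratios (horizontal axis) of the 8 regulators and of each NRF1 probe (rows) with 95% intervals over 2 cultures, 1 panel per comparison, dashed lines at 0.7 in either direction and red for those past the test. TFAM at -1.01 and the RefSeq probe of NRF1 at 1.08 passed for metformin against AICAR, and nothing passed against control.

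PPARGC1A, ESRRA and GABPA, the coactivator and the factors it acts with other than NRF1, had small ratios in every comparison. PPARGC1A (chr4:23792021-24472905, minus strand) had a log2 ratio of metformin to control of 0.04 (95% interval -0.23 to 0.31; limma adjusted p = 0.909). Its arrays were 0.12 and -0.08 in culture 1 and 0.37 and -0.06 in culture 2, on both sides of 0. Its ratio of AICAR to control was -0.20 (limma adjusted p = 0.35), with a mean of -0.54 where AICAR was in Cy5 and 0.05 where it was in Cy3, and that of metformin to AICAR was 0.24 (limma adjusted p = 0.226).

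ESRRA (chr11:64305524-64316743, plus strand) had ratios of 0.07 (95% interval -0.13 to 0.27; limma adjusted p = 0.753) for metformin and 0.14 (95% interval -0.06 to 0.34; limma adjusted p = 0.385) for AICAR against control. Its 4 arrays of metformin against control ran from -0.11 to 0.43, and 3 were positive. GABPA (chr21:25734972-25772460, plus strand) had a mean ratio over 2 probes of 0.02 (95% interval -0.23 to 0.27; limma adjusted p = 0.963) for metformin and -0.08 (95% interval -0.34 to 0.17; limma adjusted p = 0.674) for AICAR against control. Its probes are listed with the same transcript and differed for metformin against AICAR, at 0.30 (limma adjusted p = 0.164) and -0.09 (limma adjusted p = 0.627). No GABPA probe passed in any comparison.

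The intervals give the precision of the fitted ratios over the cultures. They do not bound an RNA change that a probe failed to register, because signal over background is unknown. For metformin against AICAR, the NRF1 probes had intervals that did not overlap, at 0.86 to 1.30 and -0.31 to 0.23. The 95% interval reached 0.20 to either side of the log2 ratio for ESRRA, the narrowest, and 0.46 for POLG, the widest. For metformin against control the whole interval lay within 0.7 of 0 for 5 of the 8 genes, as it did for 5 with AICAR against control and for 6 with metformin against AICAR. NRF1 was among those for metformin against control as the mean of its probes, at 0.13 to 0.61. Its RefSeq probe alone ran from 0.37 to 0.81. Within a culture, the direct ratio of metformin to control can be set beside the one obtained through AICAR, and the median gap over 20 pairs of probe and culture was 0.08, with 18 gaps below 0.25 and the largest, 0.30, for PPARGC1A in culture 1.

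The mitochondrial program around the regulators was followed in 6 lists of 127 genes in all, of which 101 were measured. The list of 15 mtDNA-encoded transcripts had no named probe here, which leaves 5 lists of nuclear genes. Of the 101, 1 was higher and 3 lower with metformin against control (3.96%), 3 higher and 5 lower with AICAR against control (7.92%), and 7 higher and 8 lower with metformin against AICAR (14.9%). Over all transcripts, 1.5% were higher and 1.24% lower with metformin against control, 0.453% and 2.89% with AICAR against control, and 4.59% and 2.01% with metformin against AICAR. All list genes are named, while all transcripts include 10054 features without a name. Of 11566 named genes with a promoter sequence, the shares in the same order were 2.08% and 1.81%, 0.553% and 3.56%, and 5.86% and 2.65%.

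Genes that read and process mitochondrial RNA held all 3 list genes lower with metformin and 4 of the 5 lower with AICAR, each against control. TRMT10C and TBRG4 are counted with both drugs. Of 17 measured genes, 3 were lower with metformin and 4 with AICAR, and none was higher, with medians of -0.28 and -0.34 beside 0.00 and 0.04 over all transcripts. TRMT10C, a subunit of mitochondrial RNase P, had log2 ratios of metformin to control of -1.45, -1.35, -1.32 and -1.34 on the 4 arrays. Its fitted ratio was -1.36 (limma adjusted p = 0.0133), and with AICAR it was -2.24 (limma adjusted p = 0.00692). TBRG4, a FASTK family protein of mitochondrial RNA, was at -1.19 with metformin (limma adjusted p = 0.0489) and -1.15 with AICAR (limma adjusted p = 0.0469). Without the 3 arrays with slide numbers apart the TBRG4 ratios were as large, at -1.38 and -1.35, and the adjusted p-values were 0.108 and 0.105.

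MRPL12, a mitochondrial ribosomal protein, was lower with metformin against control, at -0.97 (limma adjusted p = 0.0472), and its ratio of metformin to AICAR was also -0.97 (limma adjusted p = 0.0261). Without the 3 arrays apart its ratios were -1.04 against control and -0.97 against AICAR, with adjusted p-values of 0.0848 and 0.0551. FASTKD2, which stabilizes mitochondrial RNA, was lower with AICAR at -1.32 (limma adjusted p = 0.00786), and MTERF3, a repressor of mitochondrial transcription in mouse, at -1.18 (limma adjusted p = 0.00846). Without the 3 arrays apart those ratios were -1.12 and -0.95, with adjusted p-values of 0.0518 and 0.0947. FASTKD2 and MTERF3 were higher with metformin than with AICAR, at 1.00 (limma adjusted p = 0.007) and 1.06 (limma adjusted p = 0.00617), as was TRMT10C, at 0.89 (limma adjusted p = 0.014).

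Of 19 genes that copy and maintain mitochondrial DNA, 1 was higher with metformin and 1 lower with AICAR against control. LONP1, the matrix protease that degrades TFAM among other proteins, had log2 ratios of metformin to control of 1.77 and 0.95 in culture 1 and 1.80 and 1.68 in culture 2. Its fitted ratio was 1.52 (limma adjusted p = 0.0126), beside -0.01 for AICAR and 1.53 for metformin against AICAR (limma adjusted p = 0.0054). MGME1, a nuclease of mitochondrial DNA replication, was at -1.93 with AICAR (limma adjusted p = 0.0116) and at -0.85 with metformin (limma adjusted p = 0.0733), and metformin was higher than AICAR by 1.08 (limma adjusted p = 0.0247).

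Of 17 other coactivators and regulators, none passed with metformin against control, and NRIP1 and YY1 were higher with AICAR. The smallest p with metformin was that of HCFC1, a cell cycle coregulator, at -0.73 (limma adjusted p = 0.0711). NRIP1, a corepressor of nuclear receptors, had an AICAR to control ratio of 1.23 (limma adjusted p = 0.0296), and its ratio of metformin to AICAR was -1.11 (limma adjusted p = 0.0232). YY1, a transcription factor of mitochondrial genes, was at 0.97 (limma adjusted p = 0.0449) and -1.06 (limma adjusted p = 0.0229) as the mean of 2 probes. Of these, 1 probe passed for AICAR against control, at 1.20 (limma adjusted p = 0.0113), and the other was at 0.74 (limma adjusted p = 0.187). Without the 3 arrays apart the YY1 mean was at 0.94 for AICAR against control (limma adjusted p = 0.0654). NFE2L2, the antioxidant factor, was higher with metformin than with AICAR at 1.14 (limma adjusted p = 0.0216). KAT2A, an acetyltransferase that acts on PGC-1α, was lower at -0.77 (limma adjusted p = 0.0435), and at -0.79 (limma adjusted p = 0.135) without the 3 arrays apart.

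**Figure D4:**
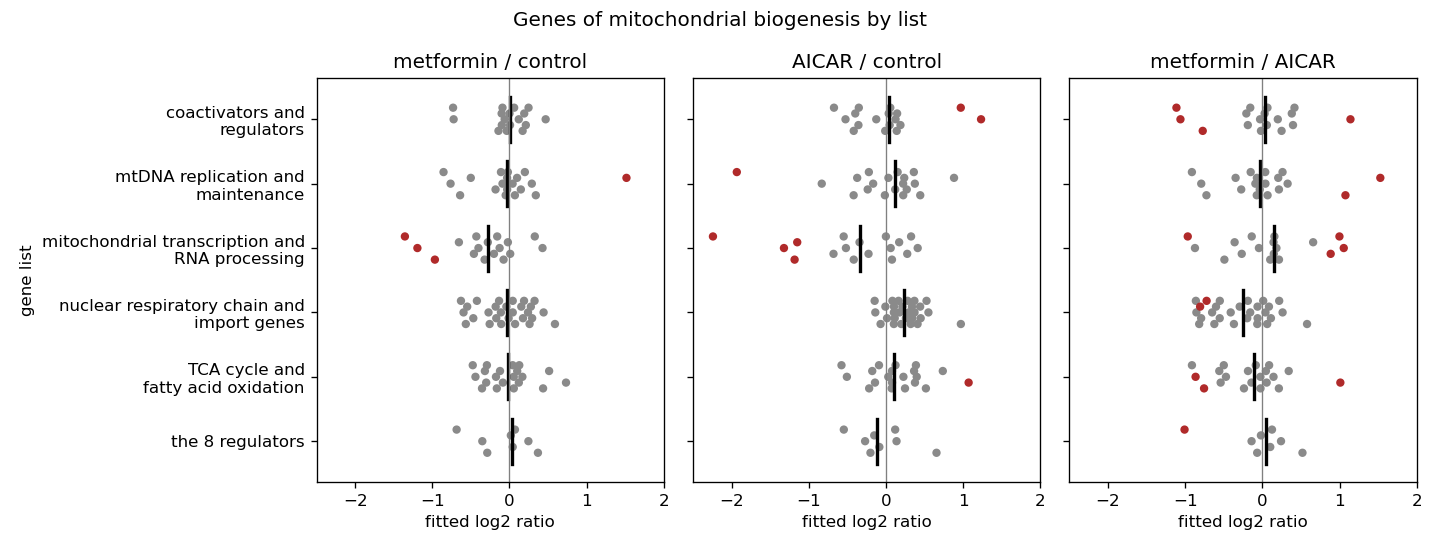
Fitted log2 ratio (horizontal axis) of each measured gene of 5 lists and of the 8 regulators (rows), 1 panel per comparison, with a black bar at the median and red for genes past the test. The medians of mitochondrial transcription and RNA processing lie at -0.28 with metformin and -0.34 with AICAR, and the respiratory chain list lies at 0.24 with AICAR.

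The 28 nuclear genes of the respiratory chain and import list held no call against control with either drug. Their median log2 ratio was -0.03 with metformin and 0.24 with AICAR, and 24 of the 28 were positive with AICAR. Over all transcripts the AICAR median was also above 0, at 0.04, and whether the list differed as a set was not tested. The smallest p with metformin belonged to ATP5MC1, a subunit of ATP synthase, at -0.63 (limma adjusted p = 0.0365), which was under the ratio threshold. With metformin against AICAR, 2 of the 28 were lower and the median was -0.25, beside -0.03 over all transcripts. These were NDUFA9, a complex I subunit, at -0.81 (limma adjusted p = 0.0478) and UQCRB, of complex III, at -0.72 (limma adjusted p = 0.0429). Without the 3 arrays apart neither passed, at ratios of -0.79 and -0.71 with adjusted p-values of 0.0801 and 0.0563. Against control with metformin, NDUFA9 was at -0.47 (limma adjusted p = 0.25), SDHA of complex II at -0.13 (limma adjusted p = 0.444) and the outer membrane channel VDAC1 at -0.55 (limma adjusted p = 0.38). The fusion protein MFN2, a gene of the next list, was at -0.44 (limma adjusted p = 0.506), and none of the 4 passed. The cultures were split for VDAC1, at -0.03 in culture 1 alone and -1.07 in culture 2 alone. MFN2 was at 0.07 in culture 1 alone and -0.95 in culture 2 alone.

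Of 20 genes of a list of the TCA cycle and fatty acid oxidation, which also holds SOD2, MFN2, UCP2 and SLC25A4, none passed with metformin against control. SOD2, the matrix superoxide dismutase, was higher with AICAR at 1.07 (limma adjusted p = 0.00977). It also had the smallest p with metformin, at 0.51 (limma adjusted p = 0.0519). CS, citrate synthase, had ratios of metformin to AICAR of -0.76 and -0.84 in culture 1 and -1.25 and -0.75 in culture 2, and a fitted ratio of -0.86 (limma adjusted p = 0.00931). IDH3G, a subunit of isocitrate dehydrogenase, was lower with metformin than with AICAR at -0.76 (limma adjusted p = 0.016), and CPT1B, a carnitine palmitoyltransferase, was higher at 1.01 (limma adjusted p = 0.00896).

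Among all named genes, the 3 whose 6 dye-swap mean ratios were nearest to those of TFAM were PRKX, TMEM14A and SNRNP200. Their root mean square differences from TFAM over the 6 ratios were 0.105, 0.114 and 0.123 on the log2 scale. All 3 were near 0 for metformin against control in culture 1 and below -0.5 in culture 2, as TFAM was. The 6 ratios come from 6 extracts that all comparisons share.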

How the data were processed

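The authors deposited 1 table of normalised log2 ratios per array, already corrected and with a mean of 0 on every array. Base, direction and background correction are not given in the sources used here, and the submitters' processing notes name limma, with no version. Channel signals and array scans were not used, so signal over background is unknown. Of 27648 features, 17711 probes had a platform symbol, 17594 were named through RefSeq accessions or symbols, and 117 whose accession and symbol disagreed were left unnamed. Probes of a gene were averaged, which left 24527 transcripts.

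Ratios were turned by the dye labels, dye-swap partners were averaged, and the 6 ratios were fitted with limma 3.58.1 in R 4.3.3 (treatment and culture, 2 residual degrees of freedom, 2.88 prior degrees of freedom). The hybridizations themselves pair the extracts within a culture, so culture stays in the model as a replicate block. A fitted ratio weights the direct ratio at 66.7%, and the rest comes through the third extract. The 2 cultures are labelled independent, and their small number limits the precision. The fit was tested on simulated data.

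Named are all regulators with every probe, NDUFA9, SDHA, VDAC1 and MFN2, up to 4 genes past the test per list and comparison (or the smallest p with metformin where none passed), and the 3 genes most like a regulator past the test. The members and lists were chosen with earlier results of these data known. Alternatives changed the fit, scaling, dye term, probes, arrays and thresholds.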

Additional observations from a re-analysis of the deposited data

Results flagged for a closer look

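In 36 groups of 4 arrays (a probe or probe mean in 1 comparison), 1 array stood apart from the other 3, where 1.8 are expected if chance picks 1 in 20. For the first GABPA probe with metformin against control, the culture 2 array with metformin in Cy5 had a log2 ratio of 0.0079, and the other 3 lay between 0.165 and 0.177. All 4 values are small, and the fitted ratio did not pass the test.

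The effects of the 2 drugs on TFAM differed from each other, tested as metformin against AICAR, at a log2 difference of -1.01 (limma adjusted p = 0.024, lower in 4 of 4 arrays). The effects on the RefSeq probe of NRF1 differed in the other direction, at 1.08 (limma adjusted p = 0.0065, higher in 4 of 4 arrays), and the second NRF1 probe was at -0.04. Controls are shared by both effects.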

How the results depend on the processing

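TFAM passed the test for metformin against AICAR under every alternative fit, with limma adjusted p-values up to 0.0467 and log2 ratios from -1.10 to -0.91 in single cultures. Without the replicate block (6 dye-swap mean ratios as independent), 955, 1201 and 1892 transcripts passed in the 3 comparisons, beside 671, 820 and 1619 with it, and the same number of regulators, 0, 0 and 1. For metformin against control, 0 transcripts passed from direct ratios alone and 331 when the 3 arrays with slide numbers apart were left out, and 1 regulator, TFB2M, passed with scaled arrays. For AICAR against control, 1248 passed with a dye term and 439 when those arrays were left out. When metformin was set against AICAR, 2690 passed on adjusted p alone, and 2 regulators, TFAM and NRF1, passed on adjusted p alone or with probes tested singly. The single-probe fit was not repeated under the other alternatives.

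Leaving out those arrays turned the sign of POLG and ESRRA with metformin against control (0.197 and -0.051) and of POLG with AICAR against control (0.204). Median-centring turned POLG in the contrast of the drugs (0.015). On its second probe GABPA turned in the 3 comparisons (-0.076, 0.016 and -0.092), and NRF1 turned for AICAR to control (0.190) and for the contrast of the drugs (-0.041). Calls of list genes named above were lost 34 times over all genes and alternatives. The cause was not tested.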

Other observations

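Genes whose promoter window held the NRF1 palindrome were described without a test, a description chosen after the data had been seen. Of the 11566 measured genes with a promoter in the table, 2.08% were higher and 1.81% lower with metformin against control, 0.553% and 3.56% with AICAR against control, and 5.86% and 2.65% with metformin against AICAR. Of the 1176 with it, these shares were 1.36% and 2.72%, 0.85% and 6.38%, and 7.4% and 4.51%. Of the 1946 with the ETS letters CCGGAAG, they were 1.95% and 2.42%, 0.668% and 5.6%, and 7.55% and 2.62%. The median log2 ratio of the NRF1 group was -0.01, 0.02 and -0.03 in these comparisons, beside 0.00, 0.04 and -0.04 over all genes with a promoter.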
